A study of Homo sapiens with 9 samples.

Results

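A set of 10 genes that move calcium into, out of and between cell compartments was examined in cells labelled as a human liver cancer line. Insulin was given in a biomineralized or a soluble form. The genes were chosen by name: ATP2A2, ATP2A3, ATP2B1, ATP2B4, ATP2C1, ITPR1, ITPR2, ITPR3, STIM1 and ORAI1, with every probe set that the array annotation gives to 1 of them alone. A probe set is the group of short probes that together read 1 transcript target. The 10 genes had 34 probe sets among the 49395 of the array, and 28 of these were bright enough to be tested. By the labels and protocols, the 9 arrays were of HepG2, a human liver cancer cell line. The protocols name these cells R-HepG2, an insulin-resistant form. The sources used here do not say how the resistance was produced. All cells were kept in serum-free medium overnight. They were then held for 4 h in biomineralized insulin (BI), in soluble insulin or in DMEM medium without either, with 3 arrays in each group. Both insulin preparations were used at 40 ug/ml. No group among these arrays received the mineral component alone, so the mineral and the insulin cannot be told apart in the BI cells. In the labels, the cell line tag is HepG2 on BI and insulin arrays and R-HepG2 on medium arrays, while the protocols name R-HepG2 for all 9. A difference in the cells cannot be told apart from the treatments in comparisons with medium if the tags are right. No source used here says whether the 3 samples of a group were separate cultures. The p-values then reflect only how far these samples vary, and that variation may be technical.

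Calcium is held very low in the cytosol by pumps that spend ATP. SERCA pumps (ATP2A2, ATP2A3) fill the endoplasmic reticulum (ER), plasma membrane pumps (ATP2B1, ATP2B4) push calcium out of the cell, and the secretory pathway pump SPCA1 (ATP2C1) loads the Golgi with calcium and manganese. Hormones that raise inositol trisphosphate (IP3) open IP3 receptors (ITPR1, ITPR2, ITPR3) and empty the ER. STIM1 senses the emptied store and opens ORAI1, the plasma membrane channel that lets calcium back in. In liver cells this cycle carries hormone signals to glucose production, and ER calcium is needed for protein folding.

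The arrays had like distributions, and most defining liver markers were dim. Array medians lay between 5.46 and 5.50 log2, and arrays correlated at 0.998 within groups and at 0.992 to 0.998 between groups. Of 15 hepatocyte markers that the annotation names, 11 had a mean below the brightness filter of 4.74 log2 (the dimmest 40% of probe sets). ALB, the gene of albumin, read 3.17 to 3.66 and AFP, the fetal albumin-like protein made by hepatomas, 2.77 to 3.06. Every probe set of ALB, AFP, APOA2, APOB, APOH, SERPINA1, FGA, FGB, FGG and RBP4 lay below that filter on all 9 arrays. APOA1, an apolipoprotein, was the brightest of the list at 5.87. Markers of other cell types also fell on both sides of the filter, with 6 of 10 above it for lung epithelium, 6 of 7 for fibroblasts, 4 of 5 for endothelium and 3 of 5 for leukocytes. Of the lung list, SCGB3A2 read 7.51, NAPSA 6.46, FOXJ1 6.22 and the lung and thyroid transcription factor NKX2-1 6.10 to 6.77. The surfactant proteins SFTPC (5.95) and SFTPB (5.06) also passed. The surfactant proteins SFTPA1 (2.80), SFTPA2 (2.65) and SFTPD (3.91) and the secretoglobin SCGB1A1 (3.28) were dim. DCN of the fibroblast list read 8.10 and PECAM1 of the endothelial list 5.53. Of the leukocyte list, CD68 (7.35), CD79A (5.35) and CD3E (4.75) passed and PTPRC (2.76) and CD14 (2.99) did not. Brightness differs between probe sets for reasons other than abundance, so these levels assign no cell type, and the cells are named below by their treatment. The liver markers do not bear out the HepG2 identity, which rests here on the labels and protocols alone. The summed hepatocyte marker level was 61.1 to 62.0 on BI arrays, 61.1 to 61.9 on insulin arrays and 60.7 to 62.4 on medium arrays. For the lung list the sums were 50.9 to 51.3 on BI arrays, 49.8 to 50.1 on insulin arrays and 49.1 to 50.6 on medium arrays, so the BI arrays lay above the others. NKX2-1 itself was higher in BI cells than in medium by 0.59 (adjusted p = 4.8e-06), with its other probe set at -0.09. The fibroblast sums were 41.6 to 42.2 on BI arrays, 41.6 to 42.2 on insulin arrays and 41.8 to 42.4 on medium arrays. The endothelial sums were 24.6 to 25.0 for BI, 24.9 to 25.3 for insulin and 24.3 to 25.4 for medium, and the leukocyte sums 23.3 to 23.4 for BI, 23.1 to 23.5 for insulin and 22.6 to 23.6 for medium. The part of the lung list's difference in the results below was not tested. In these bulk samples, fewer cells of a type and less RNA per cell cannot be told apart.

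RefSeq start sites give the upstream sequence of the members whose probe sets moved most. The promoter table (GRCh38.p14) held 14 starts for 7 of the 10 genes, with no entry for ATP2A3, ITPR2 and ORAI1. Of these, 3 are shown, for the gene with the largest rises (ATP2A2) and for 2 genes that fell on most of their probe sets (ATP2B1, ITPR1). For ATP2A2 and ATP2B1, each with 2 starts in the table, the second is shown, chosen after the sequences had been read. Each is the 250 bases before the start, 5′ to 3′ on the gene's strand. They lie at chr12:110280997-110281246 on the plus strand (ATP2A2, the second start), chr12:89709367-89709616 on the minus strand (ATP2B1, the second start) and chr3:4493098-4493347 on the plus strand (ITPR1). Capitals mark every match to a motif searched, on either strand.
ATP2A2: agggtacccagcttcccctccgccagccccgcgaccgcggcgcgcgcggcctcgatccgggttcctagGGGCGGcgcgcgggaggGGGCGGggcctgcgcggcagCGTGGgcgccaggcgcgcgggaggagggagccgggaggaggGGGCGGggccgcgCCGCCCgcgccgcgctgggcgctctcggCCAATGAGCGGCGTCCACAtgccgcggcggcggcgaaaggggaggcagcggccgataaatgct
ATP2B1: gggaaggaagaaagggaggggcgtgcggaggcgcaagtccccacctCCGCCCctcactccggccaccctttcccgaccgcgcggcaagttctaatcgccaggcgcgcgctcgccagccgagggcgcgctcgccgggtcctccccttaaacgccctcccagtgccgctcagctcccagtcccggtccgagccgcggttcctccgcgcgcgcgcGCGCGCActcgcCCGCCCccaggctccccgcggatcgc
ITPR1: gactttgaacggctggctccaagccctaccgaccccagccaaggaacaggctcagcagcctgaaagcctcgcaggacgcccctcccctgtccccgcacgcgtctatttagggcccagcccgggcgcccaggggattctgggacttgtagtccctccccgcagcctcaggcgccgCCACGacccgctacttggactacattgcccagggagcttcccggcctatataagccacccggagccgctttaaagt

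The motifs were those of stress and second messenger responses and of basic promoters, and the share of all 34943 promoters of this length that hold each is given beside it. They were the ER stress element, which is CCAAT and CCACG with 9 bases of any kind between them (0.0744%), its parts CCAAT (32.0%) and CCACG (33.5%) on their own, the composite element of CHOP and ATF4, TGATGNAAN (3.14%), and the heat shock element, which is TTC, GAA and TTC with 2 bases between neighbours (0.441%). The metal response element was searched in the loose form TGCNCNC, where N is any base (49.1%). The others were the cAMP response element TGACGTCA (1.63%), the SP1 site GGGCGG (42.5%) and the TATA box, searched only as TATAAA (10.8%). The ATP2A2 sequence holds 4 SP1 matches, 1 CCACG on the other strand and the run CCAATGAGCGGCGTCCACA at chr12:110281184-110281202, which begins 63 bases before the start. That run matches the ER stress element except in its last letter. The same pattern with that 1 letter changed, searched after the sequence had been read, is in 0.0572% of promoters. Promoters with another letter of the element changed were not counted, so this share does not give how rare a near match is. The ATP2B1 sequence holds 1 metal response match and 2 SP1 matches, and the ITPR1 sequence holds 1 CCACG alone. Of the other members, 1 start of ATP2C1 holds a heat shock element match, TTCTAGAAACTTC at chr3:130894368-130894380. No member start holds the exact ER stress element, the CHOP and ATF4 element, the cAMP response element or TATAAA in this window. Other forms of the TATA box were not searched, among them the TATATAAG near the end of the ITPR1 sequence. The first ATP2A2 start holds no match to any motif searched. GC content was 80.4% for the ATP2A2 sequence shown and 54.8% at the first start, 75.2% for the ATP2B1 sequence shown and 80.8% at the first start, and 64.8% for ITPR1, against a median of 58.0% over all promoters. These matches describe the letters only.

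Biomineralized insulin was compared with medium to see which of these genes move in the treated cells. ATP2B1, the calcium exit pump, ITPR1, a release channel, and STIM1, the store sensor, fell in BI cells, and no member rose at the level of the gene. A gene is represented here by its brightest probe set. ATP2B1 fell by 0.52 ± 0.06 log2 (SE, 3 arrays against 3, adjusted p = 1.1e-06), ITPR1 by 0.37 ± 0.05 (adjusted p = 8.8e-06) and STIM1 by 0.36 ± 0.07 (adjusted p = 3.5e-04). The count was 3 of 10 genes changed, beside 50.9% of all 12240 genes tested. All 3 were lower, beside 25.2% of all genes, and none was higher, beside 25.7%. The median difference of the 10 genes was -0.08 log2, against 0.02 over all genes. A gene or probe set counts as changed, or called, when its p, adjusted over all features in the fit by Benjamini-Hochberg, is under 0.05.

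The 28 member probe sets past the brightness filter gave a fuller picture, because ATP2A2 and ATP2C1 moved on some of their probe sets and not on the brightest. Of the 28, 5 rose and 7 fell in BI cells against medium, beside 22.0% and 24.0% of all 27223 probe sets tested. The 5 that rose belong to ATP2A2 (3) and ATP2C1 (2). The 7 that fell belong to ATP2B1 (3), ITPR1 (3) and STIM1 (1). BI and medium arrays did not overlap for 14 of the 28, beside 52.7% of all probe sets.

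**Figure D1:**
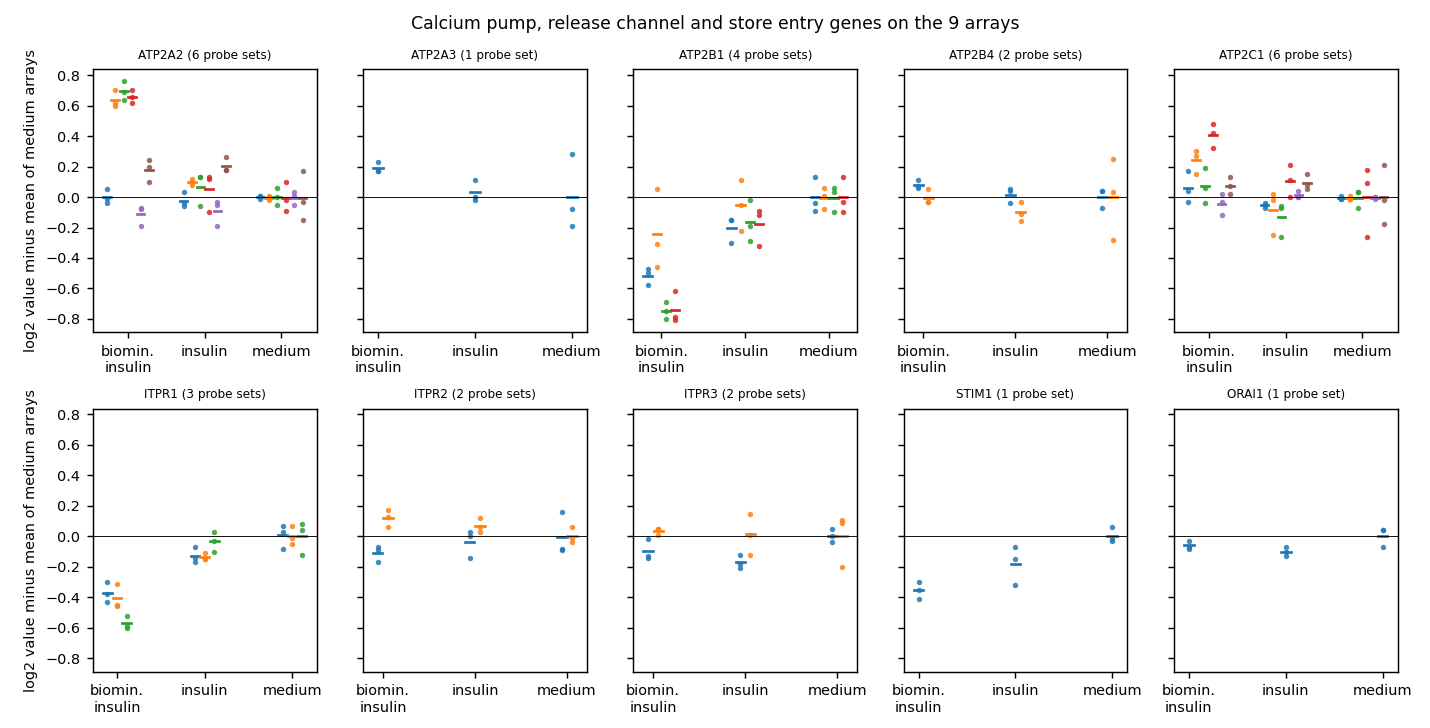
Log2 value of each tested probe set on each of the 9 arrays, minus the mean of its 3 medium arrays, for the 10 genes; each colour within a panel is 1 probe set, points are arrays and short lines are group means. ATP2B1, ITPR1 and STIM1 have BI means below 0 on each of their probe sets, 3 ATP2A2 probe sets have BI means of 0.65 to 0.70 and the other 3 of -0.11 to 0.18.

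The BI arrays also differed in their added controls. The poly-A spike-ins, foreign transcripts added to the RNA before labelling (12 probe sets), averaged 7.80 ± 0.17 log2 for BI, 7.39 ± 0.06 for insulin and 7.36 ± 0.08 for medium (SD, n = 3 each). Hybridization spike-ins, added later, averaged 10.84 ± 0.04 on BI arrays, 10.84 ± 0.05 on insulin arrays and 10.85 ± 0.03 on medium arrays. With each array centred on its poly-A spike-ins, the median over all genes was -0.42 log2 in BI against medium and -0.39 in BI against insulin. With that centring, 9 of 10 member genes (all but ATP2A3) were lower and none higher in both comparisons, and the member probe sets split into 1 higher and 21 lower against medium and 0 higher and 21 lower against insulin. Directions below are relative to the whole array as deposited, and the spike-in centred values are given beside the members that rose. RNA quality was read from actin, as its 3' probe set minus its 5' one, with 3.07 ± 0.10 log2 for BI, 3.19 ± 0.08 for insulin and 3.02 ± 0.06 for medium. The same difference for GAPDH averaged 0.20 ± 0.02 for BI, 0.17 ± 0.00 for insulin and 0.16 ± 0.04 for medium.

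ATP2A2 encodes SERCA2, the housekeeping pump of the ER, and its probe sets split into those that rose and those that did not pass the test. Probe set 11718874_s_at read 10.15, 10.25 and 10.17 log2 on the BI arrays, 9.63, 9.67 and 9.65 on the insulin arrays and 9.53, 9.56 and 9.55 on the medium arrays. All BI values lay above all others. It was higher in BI cells by 0.65 ± 0.04 log2 against medium (1.57-fold, adjusted p = 4.1e-09) and by 0.55 ± 0.04 against insulin (adjusted p = 3.8e-08). Probe set 11754302_a_at read 8.64, 8.71 and 8.59 on BI arrays, 8.08, 7.89 and 8.08 on insulin arrays and 8.01, 7.90 and 7.95 on medium arrays, a rise of 0.70 ± 0.06 against medium (adjusted p = 2.6e-07). Probe set 11718873_a_at read 8.47, 8.55 and 8.51 on BI arrays, 7.97, 7.75 and 7.98 on insulin arrays and 7.95, 7.76 and 7.83 on medium arrays, a rise of 0.66 ± 0.07 (adjusted p = 1.4e-06). For these 2 probe sets as well the BI arrays stood apart, while insulin and medium arrays overlapped.

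The brightest ATP2A2 probe set, 11758558_s_at, did not pass the test. It read 11.87, 11.96 and 11.90 log2 on BI arrays, 11.94, 11.85 and 11.87 on insulin arrays and 11.92, 11.92 and 11.90 on medium arrays, a difference from medium of 0.00 ± 0.03 (adjusted p = 0.931). Its 3 groups overlapped. Probe set 11740332_a_at read 7.11, 7.23 and 7.22 on BI arrays, 7.27, 7.25 and 7.11 on insulin arrays and 7.25, 7.33 and 7.31 on medium arrays, and its difference from medium of -0.11 ± 0.06 did not pass (adjusted p = 0.166). The dimmest, 11754301_a_at, read 4.95, 4.99 and 4.85 on BI arrays, 5.01, 4.93 and 4.93 on insulin arrays and 4.72, 4.60 and 4.92 on medium arrays, a difference of 0.18 ± 0.09 (adjusted p = 0.129). Without the third medium array that difference was 0.27 and passed (adjusted p = 0.0275).

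The spread between ATP2A2 probe sets was wide for the array. Their differences against medium ran from -0.11 to 0.70, a range of 0.81 log2, against a median range of 0.17 over the 7151 genes with at least 2 tested probe sets, of which 1.83% had a wider one. A called probe set beside an uncalled brightest one was common: it held for 1033 (20.8%) of the 4973 genes among these with any called probe set. The ATP2A2 gene makes SERCA2a and SERCA2b messenger RNAs with different 3' ends, and which transcripts each probe set reads was not determined here. The names ending in _s_at mark probes shared by several transcripts, which can be of more than 1 gene. Those ending in _a_at mark probes for several transcripts of 1 gene. Any signal from other genes was not determined here. With the probe set of largest variance in place of the brightest, ATP2A2 was higher by 0.70 (adjusted p = 2.0e-07), and with the mean of its probe sets by 0.35 (adjusted p = 7.0e-06). Centred on spike-ins, the 3 probe sets that rose were at 0.20, 0.26 and 0.22, with adjusted p of 0.0917, 0.0477 and 0.086, and the brightest was at -0.45 (adjusted p = 1.4e-04). Against insulin the same centring put those 3 at 0.13, 0.22 and 0.20, and none passed (adjusted p = 0.275, 0.0913 and 0.129).

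**Figure D2:**
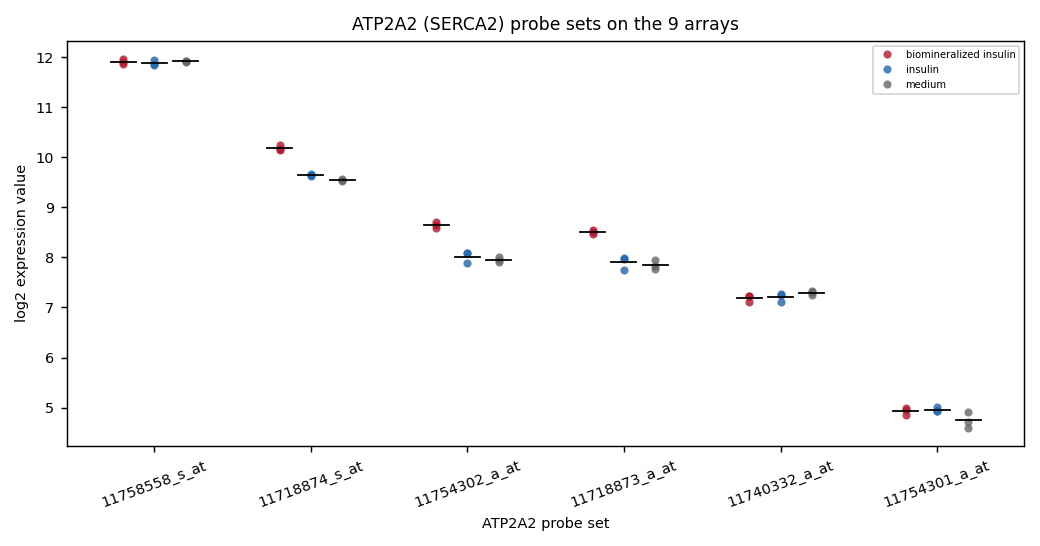
Log2 value of the 6 ATP2A2 probe sets on the BI, insulin and medium arrays, with points for arrays and lines for group means, in order of brightness. The brightest probe set, 11758558_s_at, shows no gap between groups near 11.90 log2, and 11718874_s_at, 11754302_a_at and 11718873_a_at are higher on all 3 BI arrays.

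ATP2A3 encodes SERCA3, an ER pump of blood, endothelial and some epithelial cells, and 1 of its 3 probe sets was bright enough to test. That probe set, 11733081_a_at, read 6.07, 6.13 and 6.07 log2 on BI arrays, 5.88, 6.01 and 5.90 on insulin arrays and 5.71, 5.82 and 6.18 on medium arrays. The third medium array lay above every BI array, and the difference of 0.19 ± 0.10 did not pass (adjusted p = 0.127). Without that array it was 0.33 (adjusted p = 0.00238), and with array weights 0.23 (adjusted p = 0.036). Spike-in centring turned it to -0.25 against medium (adjusted p = 0.0732) and -0.25 against insulin (adjusted p = 0.0745). Of the pair below the filter, 11748036_a_at read 4.55, 4.52 and 4.62 on BI arrays, 4.30, 4.41 and 4.21 on insulin arrays and 4.41, 4.29 and 4.24 on medium arrays. In the fit with no brightness filter it was higher in BI cells by 0.25 ± 0.09 against medium (adjusted p = 0.0456) and by 0.26 ± 0.09 against insulin (adjusted p = 0.049). Being below the filter, it was not in the fit with spike-in centring. The other dim probe set differed by 0.03 from medium (adjusted p = 0.862).

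ATP2B1 encodes PMCA1, the plasma membrane pump found in nearly all cells, and all 4 of its probe sets were lower in mean on BI arrays. Its brightest, 11743864_a_at, read 9.60, 9.63 and 9.52 log2 on BI arrays, 9.95, 9.95 and 9.80 on insulin arrays and 10.01, 10.23 and 10.06 on medium arrays. The 3 groups did not overlap, with BI lowest and medium highest. It fell by 0.52 in BI cells against medium, as given above, and by 0.32 ± 0.06 against insulin (adjusted p = 2.3e-04). Probe set 11727930_a_at read 7.75, 7.86 and 7.80 on BI arrays, 8.53, 8.26 and 8.36 on insulin arrays and 8.58, 8.61 and 8.45 on medium arrays. Probe set 11743863_a_at read 7.72, 7.89 and 7.70 on BI arrays, 8.42, 8.19 and 8.39 on insulin arrays and 8.64, 8.48 and 8.41 on medium arrays. Both fell by 0.74 against medium (adjusted p = 4.0e-07 and 1.5e-06), the steepest falls among the members, and BI arrays lay below all others.

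The remaining ATP2B1 probe set was less clear. It is 11743865_s_at, and it read 9.58, 9.94 and 9.43 log2 on BI arrays, 10.00, 9.67 and 9.84 on insulin arrays and 9.95, 9.90 and 9.81 on medium arrays. The second BI array overlapped the others, and the difference of -0.23 ± 0.10 did not pass (adjusted p = 0.0741). Without that array it was -0.38 (adjusted p = 0.00194). Of genes with several tested probe sets, 9.02% had a wider range than the 0.51 log2 of ATP2B1. By the size of its gene-level difference from medium, ATP2B1 stood within the top 9.45% of genes tested.

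ATP2B4 encodes PMCA4, the other widespread plasma membrane pump, and it did not pass the test on any probe set. Its brightest, 11718081_a_at, read 9.11, 9.07 and 9.06 log2 on BI arrays, 9.05, 8.96 and 9.04 on insulin arrays and 9.04, 9.04 and 8.93 on medium arrays. The BI values lay just above the others, by 0.08 ± 0.04 against medium (adjusted p = 0.163), and passed only after quantile normalization (0.11, adjusted p = 0.0387) and, in the other direction, after spike-in centring (-0.36, adjusted p = 0.00314). The second tested probe set differed by 0.00 ± 0.11 (adjusted p = 0.985). The 3 probe sets below the filter had group means between 3.44 and 4.00 log2, with differences of -0.07 to 0.07 between BI and medium and adjusted p of 0.659 to 0.832. A direct test of ATP2B1 against ATP2B4 was not made.

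ATP2C1 encodes SPCA1, the calcium and manganese pump of the Golgi, and some of its 6 probe sets rose by small amounts. Probe set 11755057_s_at read 9.30, 9.33 and 9.18 log2 on BI arrays, 9.05, 8.78 and 9.01 on insulin arrays and 9.04, 9.02 and 9.02 on medium arrays. It was higher by 0.24 ± 0.06 against medium (adjusted p = 0.00632) and by 0.32 ± 0.06 against insulin (adjusted p = 9.4e-04). Probe set 11745222_s_at read 8.34, 8.50 and 8.44 on BI arrays, 8.13, 8.02 and 8.23 on insulin arrays and 8.20, 8.11 and 7.76 on medium arrays. It was higher by 0.41 ± 0.09 against medium (adjusted p = 0.00223) and by 0.30 ± 0.09 against insulin (adjusted p = 0.0185). The call against insulin was lost without the second insulin array (0.25, adjusted p = 0.0739), without the second BI array (0.26, adjusted p = 0.0773) and without BI array 3 (0.29, adjusted p = 0.0525). On both, every BI array lay above every other array. Spike-in centring put them at -0.20 (adjusted p = 0.106) and -0.04 (adjusted p = 0.791) against medium, and at -0.09 (adjusted p = 0.465) and -0.11 (adjusted p = 0.386) against insulin.

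The brightest ATP2C1 probe set, 11745221_a_at, read 9.75, 9.95 and 9.82 log2 on BI arrays, 9.74, 9.71 and 9.73 on insulin arrays and 9.77, 9.77 and 9.79 on medium arrays. Its differences, 0.06 ± 0.05 against medium (adjusted p = 0.278) and 0.11 ± 0.05 against insulin (adjusted p = 0.0525), did not pass. In the fit by gene the difference from insulin passed without the first BI array (0.16, adjusted p = 0.0103) and after quantile normalization (0.12, adjusted p = 0.0325). It also passed with the dimmest 60% left out (0.11, adjusted p = 0.0452) and, in the other direction, with spike-in centring (-0.30, adjusted p = 0.0131). Probe set 11752072_a_at was higher against insulin (0.20 ± 0.07, adjusted p = 0.0281) and not against medium (0.07 ± 0.07, adjusted p = 0.403). That call was lost with spike-in centring (-0.21, adjusted p = 0.0989), without the second insulin array (0.14, adjusted p = 0.132), without the second BI array (0.20, adjusted p = 0.061) and without BI array 3 (0.14, adjusted p = 0.138). The last 2 probe sets differed from medium by -0.04 and 0.07 (adjusted p = 0.573 and 0.563).

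**Figure D3:**
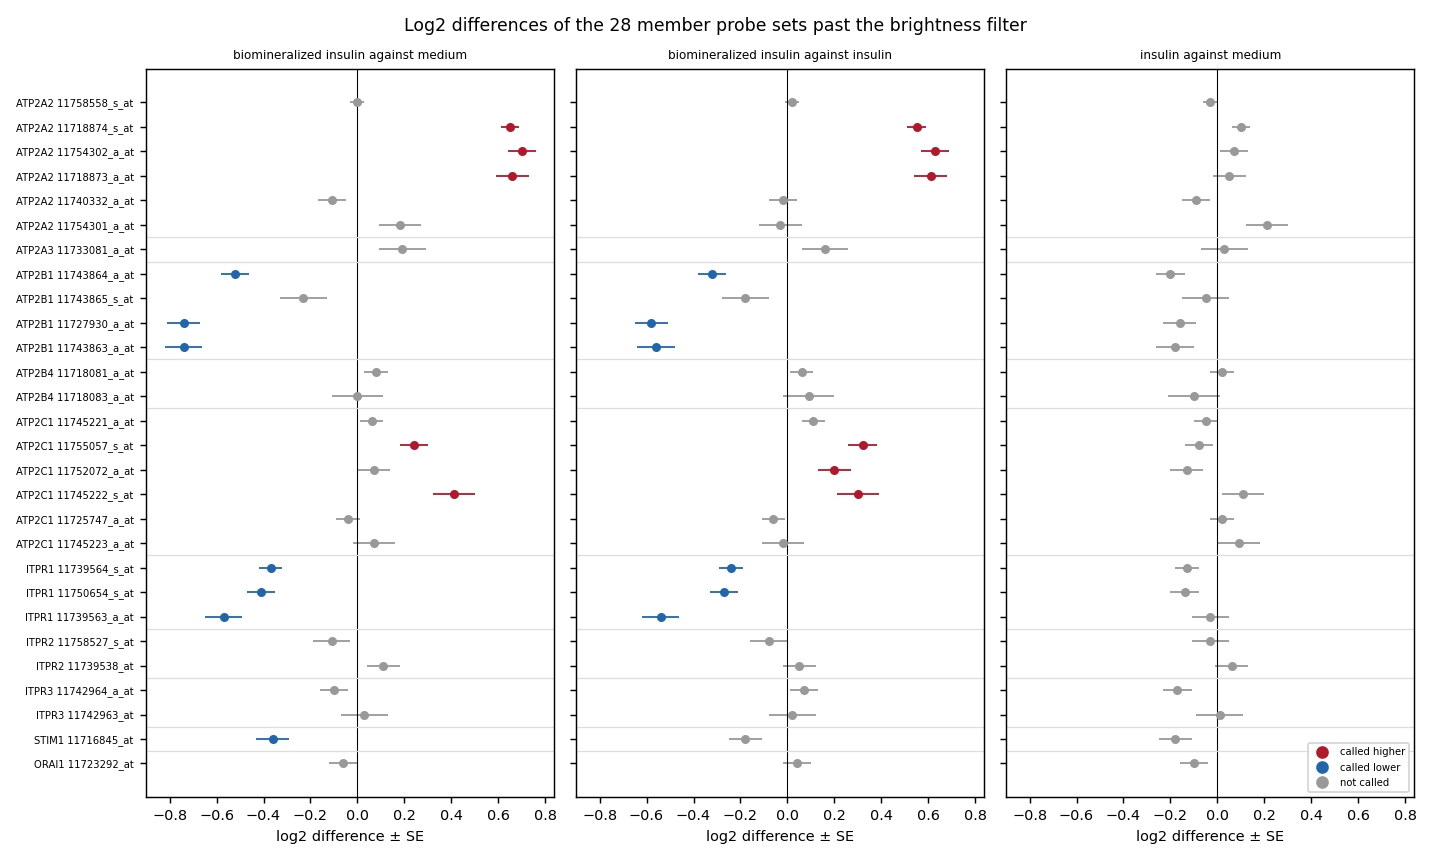
Log2 difference with its standard error for the 28 tested member probe sets in each comparison, with called rises in red, called falls in blue and the rest in grey. The first 2 panels show the rises of ATP2A2 and ATP2C1 and the falls of ATP2B1 and ITPR1, and the third panel, insulin against medium, has no call.

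ITPR1 encodes the type 1 IP3 receptor, and it fell on all 3 of its probe sets in BI cells. Probe set 11739564_s_at, the brightest, read 8.90, 8.95 and 9.03 log2 on BI arrays, 9.19, 9.16 and 9.26 on insulin arrays and 9.40, 9.36 and 9.25 on medium arrays. Probe set 11750654_s_at read 7.60, 7.61 and 7.75 on BI arrays, 7.91, 7.91 and 7.95 on insulin arrays and 8.13, 8.01 and 8.05 on medium arrays. Probe set 11739563_a_at read 4.78, 4.77 and 4.85 on BI arrays, 5.27, 5.40 and 5.34 on insulin arrays and 5.41, 5.45 and 5.25 on medium arrays. On each, all BI values lay below all insulin and medium values. The differences from medium were -0.37 ± 0.05, -0.41 ± 0.06 and -0.57 ± 0.08 (adjusted p = 2.5e-05, 3.1e-05 and 5.1e-05 among probe sets). Against insulin the differences were -0.24 ± 0.05, -0.27 ± 0.06 and -0.54 ± 0.08 (adjusted p = 0.00139, 0.00156 and 1.1e-04). The third probe set's BI mean of 4.80 lay close to the filter of 4.74.

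ITPR2, the IP3 receptor that predominates in hepatocytes, and ITPR3, the form prominent in bile duct and other secretory epithelium, did not pass the test. For ITPR2, probe set 11758527_s_at read 6.89, 6.99 and 6.97 log2 on BI arrays, 7.06, 6.92 and 7.09 on insulin arrays and 7.22, 6.97 and 6.98 on medium arrays, a difference from medium of -0.11 ± 0.07 (adjusted p = 0.227). Its second tested probe set differed by 0.11 ± 0.07, in the opposite direction (adjusted p = 0.208), and the third, below the filter, by -0.13 ± 0.10 (adjusted p = 0.403 with no filter). The brightest probe set of ITPR3, 11742964_a_at, read 7.07, 7.06 and 7.18 on BI arrays, 6.99, 7.02 and 7.08 on insulin arrays and 7.25, 7.20 and 7.16 on medium arrays. Its BI values overlapped both other groups, and it differed from medium by -0.10 ± 0.06 (adjusted p = 0.164). The second ITPR3 probe set differed by 0.03 ± 0.10 (adjusted p = 0.808). Whether ITPR1 differed from its relatives in response was not tested.

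STIM1, the ER calcium sensor, has 1 probe set, and its messenger RNA was lowest in BI cells. It read 6.75, 6.81 and 6.86 log2 on BI arrays, 7.01, 7.09 and 6.84 on insulin arrays and 7.22, 7.14 and 7.13 on medium arrays. BI arrays lay below all medium arrays, and the third insulin array overlapped the BI arrays. Against medium it fell by 0.36, as given above. Against insulin the difference of -0.18 ± 0.07 just passed in the gene fit (adjusted p = 0.0472) and not in the probe set fit (adjusted p = 0.0615), where it passed without the third insulin array (-0.25, adjusted p = 0.0129). It was lost in 15 of 25 alternatives, where the adjusted p over all alternatives ran up to 0.205, among them leaving out the first or second BI array (adjusted p = 0.155 and 0.0916), the first or second insulin array (0.129 and 0.205) or the second medium array (0.0587).

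ORAI1, the store-operated channel itself, has 1 probe set and did not pass the test. It read 6.99, 7.0 and 7.04 log2 on BI arrays, 6.94, 7.0 and 6.97 on insulin arrays and 7.0, 7.11 and 7.11 on medium arrays. The groups overlapped, and ORAI1 differed by -0.06 ± 0.06 from medium (adjusted p = 0.379) and by 0.04 ± 0.06 from insulin (adjusted p = 0.62).

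The comparison of BI with soluble insulin asks what the mineral form adds at the same insulin concentration. ATP2B1, ITPR1 and, with the limits above, STIM1 were lower in BI cells. That is 3 of 10 genes lower and none higher, beside 23.3% of all genes lower, 21.1% higher and 44.4% changed in either direction, with a median of 0.03 log2 against 0.02 over all genes. Among the 28 probe sets, 6 rose and 6 fell, beside 18.4% and 20.4% of all probe sets. With spike-in centring none rose and 21 fell. The 6 rises were 3 of ATP2A2 and 3 of ATP2C1, and the 6 falls were 3 of ATP2B1 and 3 of ITPR1. Both comparisons use the same BI arrays, so they are not independent of each other.

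Soluble insulin against medium gave no call among the members. None of the 10 genes and none of the 28 probe sets passed in limma, beside 2.45% of all genes and 1.23% of all probe sets. At an unadjusted p under 0.05, 4 of the 10 genes were lower and none higher, beside 15.8% of all genes in either direction. Among the 28 probe sets, 9 had an unadjusted p under 0.05 (2 higher and 7 lower), beside 14.0% of all probe sets. The 4 genes were ATP2B1 (-0.20 ± 0.06, adjusted p = 0.0737), ITPR3 (-0.17 ± 0.06, adjusted p = 0.149), ITPR1 (-0.13 ± 0.05, adjusted p = 0.196) and STIM1 (-0.18 ± 0.07, adjusted p = 0.197). Over all their tested probe sets, ATP2B1 ran from -0.20 to -0.05, ITPR3 from -0.17 to 0.01 and ITPR1 from -0.14 to -0.03. ATP2B1 passed with the replicate number as a block (adjusted p = 0.0433) and with array weights (adjusted p = 0.0184). On their brightest probe sets, 4 genes had insulin and medium groups that did not overlap (ATP2B1, ATP2C1, ITPR3 and STIM1). All 4 were lower under insulin, beside 9.10% of all genes. Over its 6 tested probe sets, ATP2C1 ran from -0.13 to 0.11. The groups were apart for 7 of the 28 probe sets, beside 17.6% of all probe sets. Of these 7, 5 were lower and 2 higher, both of ATP2A2 (0.10 and 0.21). The actin 3' minus 5' signal was higher on insulin than on medium arrays by 0.17 log2 and that of GAPDH by 0.00, and their part in these values was not tested. This comparison and that of BI with medium share the medium arrays. For ATP2B1 the difference from medium was -0.52 in BI cells and -0.20 in insulin cells, for ITPR1 -0.37 and -0.13, and for STIM1 -0.36 and -0.18.

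The wider calcium-handling genes were described through 8 lists of 138 genes, of which 99 were bright enough to test. In BI cells against medium, 26 rose and 17 fell, which is 43.4% of those tested beside 50.9% of all genes, with a median of 0.07 log2 against 0.02. With spike-in centring the split was 3 higher (CAV1, INPP5A and CAMKK1) and 71 lower, and of the other called rises VDAC1, LETM1 and PIEZO1 were at 0.04, 0.02 and 0.01 and the rest below 0. Against insulin, 22 rose and 15 fell (37.4%, beside 44.4%), and with spike-in centring 3 rose and 75 fell. In insulin cells against medium 1 gene passed (1.01%, beside 2.45%): VDAC1, a channel of the outer mitochondrial membrane, higher by 0.22 ± 0.05 (adjusted p = 0.0171). VDAC1 did not pass with spike-in centring (0.19, adjusted p = 1), with only the 6 arrays compared (adjusted p = 0.0624), with no intensity trend (0.127), or without the second medium array (0.0953), the first insulin array (0.0723) or the third insulin array (0.111). Without the second insulin array 4 list genes passed. Of the 43 list genes called in BI against medium, 33 were called whichever array was left out, and the other 10 (ORAI3, BCL2, TMBIM6, BOK, PLCB1, PLCG1, SLC8A2, SLC24A1, TRPV1 and BSG) lost the call without at least 1 array, with a highest adjusted p of 0.166 for BCL2. Against insulin 24 of 37 were called whichever array was left out. In each list the genes named first are those called with the 4 lowest p against medium, and any others are named after their values were seen.

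Of the other calcium ATPases and their regulators, 5 of 6 were dim, among them the muscle pump ATP2A1, its small inhibitor SLN and PLN, which restrains SERCA2 in heart. ATP2C2, the second Golgi pump, differed by 0.20 (adjusted p = 0.124). Among 13 other store-operated entry genes, 4 rose and 1 fell. CAV1, the coat protein of caveolae, averaged 11.60 log2 on BI arrays, 10.93 on insulin arrays and 10.87 on medium arrays, a rise of 0.72 ± 0.04 against medium (adjusted p = 6.9e-11) that held after spike-in centring (0.28, adjusted p = 0.0153). HOMER3, a scaffold, rose by 0.36, ORAI2, a relative of ORAI1, by 0.22, and SARAF, which slows store-operated entry, by 0.17. The lowest of the ORAI2 probe sets was at -0.06. ORAI3, another relative, fell by 0.25, with 1 of its probe sets at 0.00. The ryanodine receptors RYR1, RYR2 and RYR3, the release channels of muscle and nerve, were dim.

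Partners of the IP3 receptor moved both ways, with 3 of 13 higher and 3 lower. AHCYL1, known as IRBIT, which binds the receptor's IP3 site, fell by 0.22 ± 0.03 (adjusted p = 1.1e-05), and ERLIN1, part of the complex that marks activated receptors for destruction, by 0.21 ± 0.04 (adjusted p = 1.4e-04). AHCYL2, a relative of AHCYL1, rose by 0.23 and BOK, a BCL2 family protein bound to the receptors, by 0.26. The other called genes were BCL2 (0.23), which binds IP3 receptors, and TMBIM6 (-0.09), a leak channel of the ER. Among 14 genes that make or remove IP3, 3 rose and 3 fell. INPP5A, the phosphatase that ends the IP3 signal, averaged 8.92 log2 on BI arrays, 8.18 on insulin arrays and 8.06 on medium arrays. It rose by 0.87 ± 0.05 against medium (adjusted p = 1.5e-10), by 0.71 on its weaker probe set, and remained higher after spike-in centring (0.42, adjusted p = 8.0e-04). PLCB3, a phospholipase that makes IP3, rose by 0.26, while the phosphatase INPP5B fell by 0.42 and ITPKC, a kinase that converts IP3, fell by 0.34. The phospholipases PLCG1 (0.29) and PLCB1 (-0.34) were the other called genes.

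**Figure D4:**
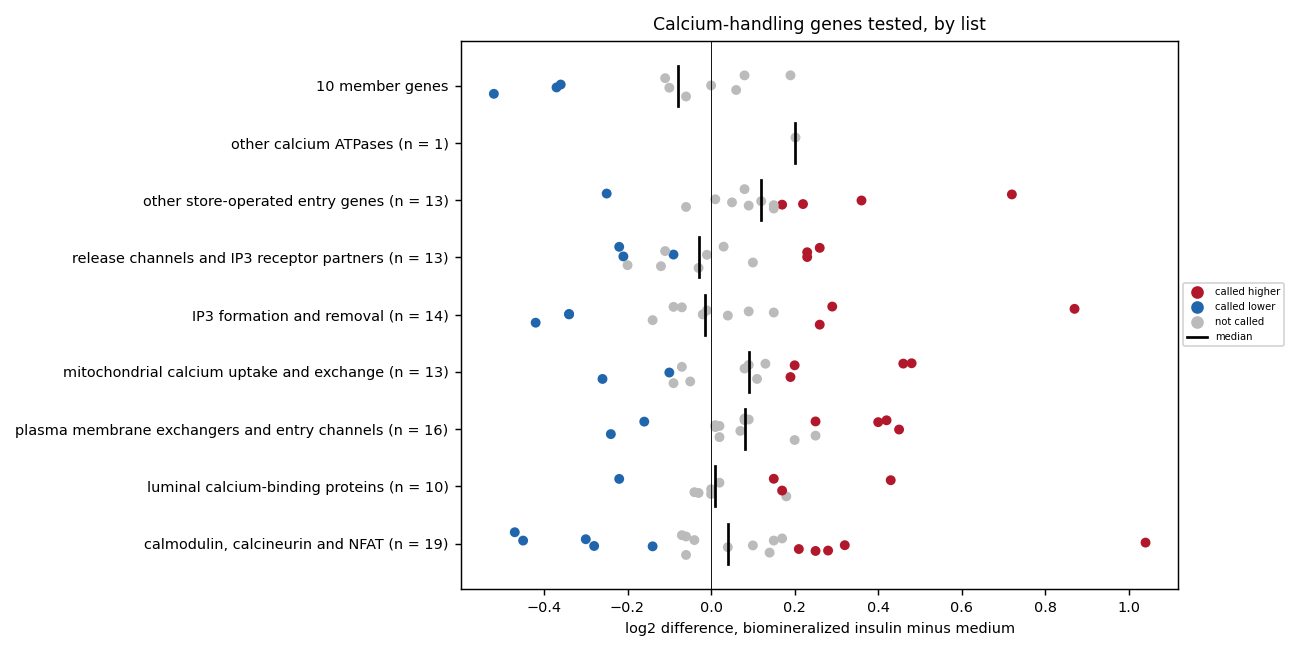
Log2 difference between BI and medium for the 10 genes and for each tested gene of the 8 calcium-handling lists, with called rises in red, called falls in blue, the rest in grey and a bar at each list's median. Each of the 7 lists with more than 1 tested gene holds called genes on both sides of 0, and the member genes have calls only below 0.

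Of 13 genes of mitochondrial calcium uptake and exchange, 4 rose and 2 fell against medium. VDAC1 rose by 0.48 ± 0.05 (adjusted p = 1.7e-07) and VDAC3 by 0.19. LETM1, an ion exchanger of the inner membrane, rose by 0.46, although another of its 4 probe sets was at -0.06. SMDT1 (EMRE), a subunit of the mitochondrial calcium uniporter, fell by 0.26, while MCU, the pore of that uniporter, rose by 0.20. VDAC2 was the other called gene (-0.10). Of 16 plasma membrane exchangers and channels, 4 rose and 2 fell: PIEZO1, a stretch-gated channel, rose by 0.45, NPTN, a glycoprotein that pairs with plasma membrane calcium pumps, by 0.42 and SLC8A2, a sodium-calcium exchanger, by 0.25. BSG, a like partner of those pumps, fell by 0.16 and had another probe set at 0.02. The other called genes were TRPV1 (0.40), a heat-gated channel, and SLC24A1 (-0.24), an exchanger.

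Calcium-binding proteins of the ER and Golgi lumen changed for 4 of 10 genes. CALU rose by 0.43 ± 0.03 (adjusted p = 2.5e-08), PDIA4, a protein disulfide isomerase, by 0.17 and RCN2 by 0.15, while NUCB2 fell by 0.22. CALR, the main calcium buffer of the ER, and HSPA5, its chaperone BiP, differed by 0.02 and 0.00 (adjusted p = 0.83 and 0.953). Of 19 genes of calmodulin signalling, calcineurin and NFAT, 5 rose and 5 fell. CAMKK1, a calmodulin-dependent kinase, rose by 1.04 ± 0.06 on its brightest probe set (adjusted p = 4.9e-10) but was at 0.05 on the other. DYRK1A, a kinase that sends NFAT out of the nucleus, fell by 0.47, CAMK1D by 0.45 and PPP3CA, a catalytic subunit of calcineurin, by 0.30. The rest of the calls were CABIN1 (0.32), CAMKK2 (0.28), PPP3CB (0.25), RCAN1 (0.21), PPP3CC (-0.28) and NFATC3 (-0.14).

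The way the data were processed changed some members and left others. ATP2B1, ITPR1 and STIM1 were lower in BI cells than in medium in every alternative that could be run for them, at -0.96 to -0.45, -0.81 to -0.34 and -0.80 to -0.32 log2. ATP2A2 ran from -0.45 with spike-in centring to 0.70 with its most variable probe set.

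**Figure D5:**
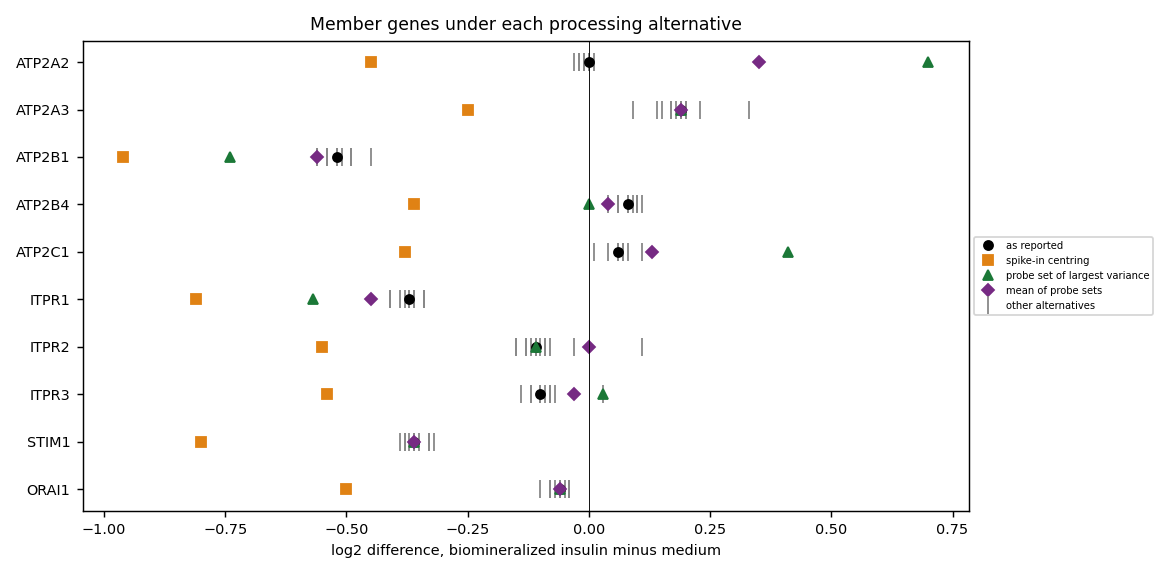
Log2 difference between BI and medium for each of the 10 genes as reported (black) and under each alternative, with spike-in centring, the probe set of largest variance and the mean of probe sets marked. Spike-in centring lies lowest for every gene, and for ATP2B1, ITPR1 and STIM1 every mark is below 0.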

How the data were processed

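The authors deposited 1 log2 expression value per probe set and array, a unit found from the values (2.02 to 14.34 log2) and their like distributions, since per the labels' protocols only extraction and labelling are described. Per the labels' protocols, labelling of total RNA used a kit for 3' in vitro transcription. The sources used here do not name the summarisation or normalization software. Scanner files were not analysed, and the 3 arrays a group limit the precision. The platform annotation gave 1 gene symbol to 44994 of the 49395 probe sets and several to 1832, it listed none for 2473, and 102 were controls. Symbols were updated through Entrez identifiers (RefSeq, GRCh38.p14) for 44967.

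From these values the dimmest 40% of probe sets were left out (below 4.74 log2), and each of 12240 genes was represented by its brightest probe set. A second fit took all 27223 probe sets as features. limma 3.58.1 (R 4.3.3, lmFit, eBayes with intensity trend, 6 residual degrees of freedom) was fitted to all 9 arrays with no replicate term, with Benjamini-Hochberg adjustment over all features and a threshold of 0.05. The procedure was tested on simulated data with independent noise and far fewer changed genes than were called in the BI comparisons. That test does not show how the procedure performs when so many genes change. Groups and replicate numbers came from the sample titles. Deviations of same-numbered arrays correlated at -0.23 to 0.17, and the arrays were treated as unpaired.

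The members, gene lists, motifs and alternatives were chosen with earlier results of these data known. Named are all 10 members and, in each list, the called genes with the 4 lowest p against medium. The alternatives changed normalization, centring, an added offset of 16, the brightness filter, how a gene's probe set was chosen, the trend of variance, weights per array, the threshold, which arrays were fitted (also without each in turn) and the replicate block. Figures were drawn with matplotlib 3.10.9.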

Additional observations from a re-analysis of the deposited data

How the results depend on the processing

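Centring on the poly-A spike-ins changed most calls: 9 of 10 genes were called in BI against medium and 9 in BI against insulin, all lower, beside 3 in each as reported. Against medium it put ATP2B4 at -0.36 (probe set 11718081_a_at -0.36), ATP2C1 at -0.38 (its 5 turned probe sets at -0.38, -0.20, -0.37, -0.04 and -0.37), ITPR2 11739538_at at -0.33 and ITPR3 11742963_at at -0.41. Against insulin it put ATP2A2 at -0.39 (11758558_s_at -0.39), ATP2B4 at -0.35 (11718081_a_at -0.35, 11718083_a_at -0.32), ATP2C1 at -0.30 (probe sets -0.30, -0.09, -0.21 and -0.11), ITPR2 11739538_at at -0.36, ITPR3 at -0.34 (probe sets -0.34 and -0.39) and ORAI1 at -0.37 (probe set -0.37). The spike-ins were higher on BI arrays, as given above, and the cause was not tested.

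The choice of probe set came next. Against medium, 5 genes were called with the probe set of largest variance and 5 with the mean of probe sets (ATP2A2 at 0.70 and 0.35), and 1 without suffixed probe sets, which left 4 of the 10 genes to test. Against insulin the mean of probe sets gave 5 calls and the fit without suffixed probe sets 0, with 4 tested. In insulin against medium, where no gene was called, 1 was called (ATP2B1) with the replicate block, with array weights and at an adjusted p under 0.10. The replicate block moved no other count of member genes by over 1.5 times, although STIM1 in BI against insulin lost its call (adjusted p = 0.0626). No source used here says whether the replicate numbers pair the arrays. Leaving out each array in turn gave 3 to 4 called genes in BI against medium, 2 to 3 in BI against insulin and 0 in insulin against medium. Of 99 list genes, 39 to 51 were called against medium under alternatives other than spike-in centring (74), a threshold of 0.01 (35) and the fit without suffixed probe sets (11). The number of arrays and the dimness of 6 member probe sets limit what could be tested.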
